A study of Mus musculus with 8 samples.

Results

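The 10 genes described here encode Toll-like receptors (Tlr1, Tlr2, Tlr3, Tlr4 and Tlr6), helpers of lipopolysaccharide recognition at the cell surface (Cd14 and Ly96) and adaptors that carry the signal inside the cell (Myd88, Tirap and Ticam1). They were taken by gene symbol, with every probe of each symbol kept, which gave 14 of the 25697 probes and 10 of the 16590 named genes on the array. Tlr4 and Ticam1 had 2 probes each, Tirap had 3, and the other 7 genes had 1. Goblet cells, which make and secrete the gut's mucus, were sorted from the epithelium of C57Bl/6 mice as cells negative for CD45 and CD24 that carried cytokeratin 18 and bound the lectin UEA-I. Small intestine and colon each contributed 4 samples, each on 1 Illumina array. No treatment or altered allele is labelled in either group. The sources used here do not give age, sex or whether samples came from separate or pooled animals. The p-values therefore cover the scatter of these 8 samples alone, part or all of which could be technical.

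Toll-like receptors bind conserved microbial molecules and signal through a TIR domain. TLR4, with the co-receptor MD-2 (encoded by Ly96) and with CD14 as a carrier, recognises lipopolysaccharide of Gram-negative bacteria, TLR2 pairs with TLR1 or TLR6 to recognise bacterial lipopeptides, and TLR3 recognises double-stranded RNA in endosomes. MyD88, recruited to TLR2 and TLR4 with the help of TIRAP, leads to NF-kappaB activation, whereas TRIF (encoded by Ticam1) serves TLR3 and internalised TLR4 and leads to interferon production. In the gut these receptors lie in an epithelium that is always near bacteria, and bacteria are far denser in the colon than in the small intestine.

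The mean signal per array ran from 386 to 558 intensity units, and each array had 12447 to 13922 probes above background, meaning a detection p below 0.05 against the negative control probes. All 12 goblet cell marker genes with a probe were tested. Of these, 7 were higher in colon and the 5 that did not pass were Tff3, Clca1, Zg16, Spink4 and the sorted keratin Krt18. Colon samples 1 and 4 stood apart in their Paneth cell markers, whose summed level was 12030 and 13227 there against 2830 and 1920 in colon samples 2 and 3 (normalized intensity above the offset, summed over 7 genes). Their sums were also higher for T and NK cell markers (786 and 1229 against 357 and 503) and enterocyte markers (5349 and 11285 against 3834 and 3639). Calls named below that were lost without those 2 samples are given with and without them.

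The surface receptors Tlr4 and Tlr1 and the co-receptor Cd14 were higher in the samples sorted from colon than in those from small intestine. The 2 probes of Tlr4, which was not above background in small intestine, were at least 4.32-fold and at least 2.64-fold higher. Tlr1 was 8.58-fold and Cd14 3.38-fold higher, with 2 and 1 of the 4 small-intestinal arrays above background. These sizes rest on small-intestinal values near background. Without background correction the differences went from 3.10 to 1.44 log2 for Tlr1 and from 1.76 to 0.62 for Cd14. The samples also held markers of cell types other than goblet cells, whose part was not tested. The adaptor Ticam1 was lower in colon by 2.67-fold at 1 of its 2 probes, which was above background on 2 colon arrays. Tirap was higher by 1.76-fold at 1 of its 3 probes. Myd88 and Tlr3 did not pass the test, and Ly96 narrowly missed it. Tlr2 and Tlr6 were too dim to be tested. Levels are log2 of background-corrected and quantile-normalized intensity, differences are colon minus small intestine, and the test was limma's moderated linear model with Benjamini-Hochberg adjustment over the 13618 probes above background on at least 4 of the 8 arrays, with a threshold of 0.05.

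More of the 14 probes were above background in colon than in small intestine. On the small-intestinal arrays 1 to 4, 7, 9, 6 and 7 of the 14 were above background, and on the colon arrays 12, 14, 10 and 10. The lowest colon count was thus 10 and the highest small-intestinal count 9. By gene, which counts repeated probes once, 6, 6, 5 and 4 of the 10 were detected in small intestine and 9, 10, 7 and 8 in colon. Of all 25697 probes, 12475, 13922, 13404 and 13701 were above background on the small-intestinal arrays and 13021, 13385, 12447 and 12891 on the colon arrays. The probes of Myd88 and Ly96 were above background on all 8 arrays, 8 probes were so on all 4 colon arrays, and 3 on all 4 small-intestinal arrays. Both Tlr4 probes were above background on all 4 colon arrays and on no small-intestinal array, a pattern that 0.743% of all probes showed, where 0.782% showed the reverse. Without the filter on dim probes, 5 of the 14 were called higher in colon and 1 lower, beside 6.17% and 4.77% of all 25697 probes. With the filter, which 12 of the 14 passed, the same numbers were called, and among all tested probes 11.6% were higher and 9.83% lower. The 4 samples of each segment did not overlap for 6 probes that were higher in colon and 1 that was lower, where 8.7% and 6.93% of all probes separated in that direction. The 10 genes were chosen with earlier results of these data known, so these counts are a description.

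**Figure D1:**
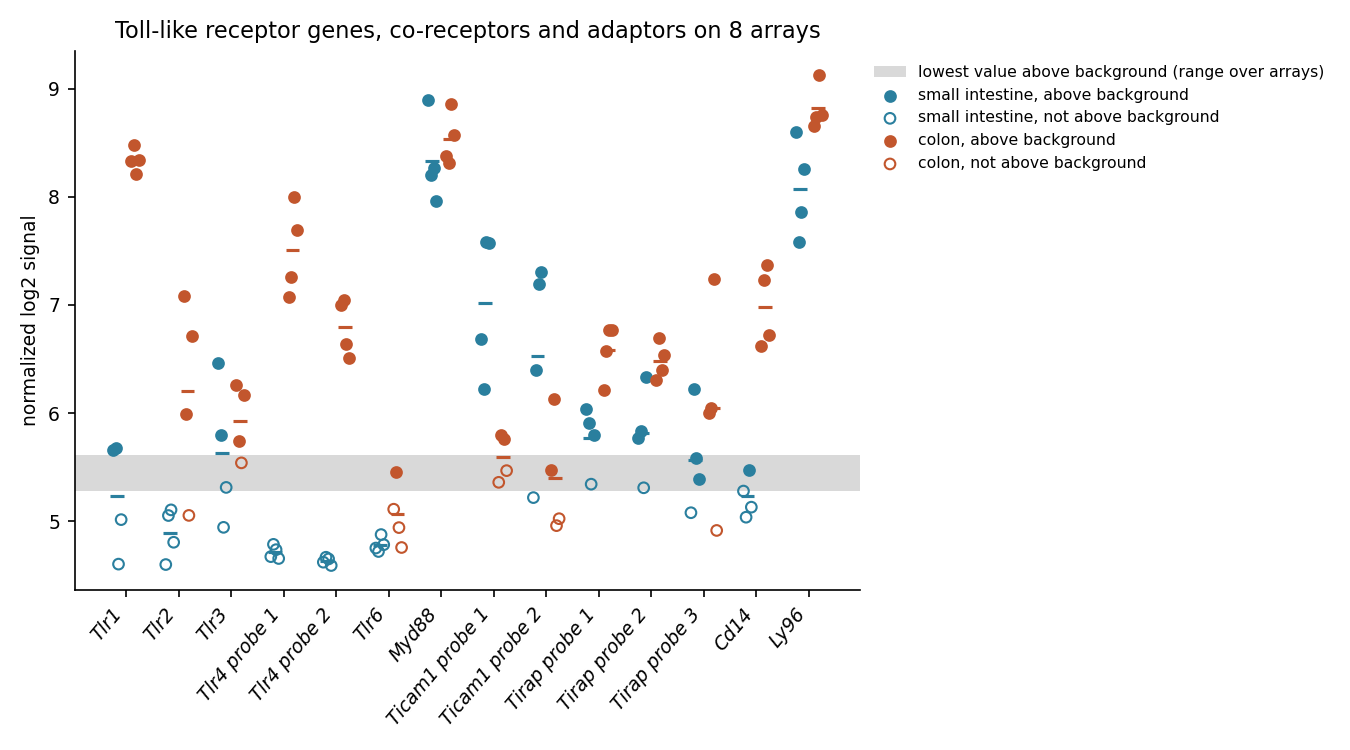
Normalized log2 intensity (vertical axis) of each of the 14 probes (horizontal axis) on the 4 small-intestinal (blue) and 4 colon (orange) arrays. Points are single arrays, filled where above background, dashes are group means and the grey band is the range over arrays of the lowest value above background; the Tlr4 probes are above background on 4 colon arrays and 0 small-intestinal arrays.

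Tlr4, the lipopolysaccharide receptor, was measured by 2 probes. At the first (ILMN_2690004), the small-intestinal samples read 4.67, 4.79, 4.74 and 4.65 log2 and the colon samples 7.08, 7.26, 8.00 and 7.69. All 4 colon samples lay far above all 4 small-intestinal samples, which lay at the level of the background (SD 0.06 log2). The difference was 2.80 log2 (SE 0.22, 95% confidence interval 2.30 to 3.29, n = 4 per segment, limma adjusted p = 7.69e-06). Since no small-intestinal array was above background, Tlr4 is best given as at least 4.32-fold higher in colon, a bound set by the lowest intensity called above background on each array. The second probe (ILMN_2752966) read 4.62, 4.67, 4.65 and 4.59 in small intestine and 7.00, 7.05, 6.64 and 6.51 in colon. Its segments were just as separate, although it ranked the colon samples differently. Its difference was 2.17 log2 (SE 0.19, interval 1.76 to 2.58, limma adjusted p = 1.19e-05), or at least 2.64-fold. Both Tlr4 probes passed the filter through the colon arrays alone, and without the filter their limma adjusted p-values were 7.50e-05 and 4.36e-05.

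Tlr1, which pairs with TLR2 to recognise triacylated lipopeptides, was also higher in colon. Its probe (ILMN_1236908) read 5.66, 5.68, 4.60 and 5.01 log2 in small intestine and 8.33, 8.48, 8.21 and 8.34 in colon. In the raw signal the same samples read 172, 200, 133 and 177 intensity units in small intestine and 374, 531, 347 and 476 in colon. The colon samples were close to each other and all above the small-intestinal ones, of which samples 1 and 2 were above background and samples 3 and 4 were not. The difference was 3.10 log2 (SE 0.25, interval 2.54 to 3.66, limma adjusted p = 9.18e-06). Among all tested probes, 103 had a larger rise in colon. Tlr1 was called higher in colon in every setting that tested it, as were both Tlr4 probes and Cd14. No promoter of Tlr4 or Cd14 was available here. The 2 annotated promoters of Tlr1, the 250 bases before each start in RefSeq on GRCm38.p6, are therefore shown. They are read from the gene's minus strand at chr5:64932700-64932949 and chr5:64933559-64933808, and capitals mark motif matches.
Tlr1 first promoter: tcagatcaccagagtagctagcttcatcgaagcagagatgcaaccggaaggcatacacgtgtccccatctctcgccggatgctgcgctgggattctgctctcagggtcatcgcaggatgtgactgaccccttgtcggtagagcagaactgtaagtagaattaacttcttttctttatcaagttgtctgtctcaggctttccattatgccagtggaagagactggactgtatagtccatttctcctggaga
Tlr1 second promoter: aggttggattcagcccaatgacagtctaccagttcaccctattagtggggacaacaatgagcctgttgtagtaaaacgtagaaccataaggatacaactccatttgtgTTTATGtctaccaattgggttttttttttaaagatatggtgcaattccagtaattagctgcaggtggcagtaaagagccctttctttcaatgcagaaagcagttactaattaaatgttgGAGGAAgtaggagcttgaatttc
Both strands were searched for 5 motifs: NF-kappaB (GGG and CC with 5 bases between), AP-1 (TGANTCA), PU.1 (GAGGAA), the interferon response element (GAAA and GAAA with 2 bases between) and Cdx (TTTATG). The first Tlr1 promoter held none of them. In the second, the PU.1 letters began 23 bases and the Cdx letters 142 bases before the start. Of the 32851 RefSeq promoters of that length, 23.3% hold the PU.1 letters and 10.8% the Cdx letters, so neither match is rare.

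Tlr2, whose product pairs with TLR1 or TLR6 in lipopeptide recognition, and Tlr6 were close to background. Tlr2 (ILMN_2733733) read 4.60, 5.05, 5.10 and 4.81 log2 in small intestine and 7.08, 5.99, 5.05 and 6.71 in colon. It was above background on colon arrays 1, 2 and 4 and on no small-intestinal array, and colon sample 3 lay within the small-intestinal range. The means were 4.89 ± 0.23 and 6.21 ± 0.89 (SD, n = 4), at least 1.75-fold apart, and without the filter the limma adjusted p was 0.0821. Tlr6 (ILMN_3162337) was above background on 1 array, colon sample 2, at 5.45 log2, and its other values ran from 4.72 to 5.11. Whether Tlr6 differed was not detectable at this signal, and without the filter its limma adjusted p was 0.322.

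Cd14, the protein that hands lipopolysaccharide to the TLR4 complex, moved in the same direction as Tlr4. Its probe (ILMN_2742075) read 5.28, 5.04, 5.47 and 5.13 log2 in small intestine and 6.62, 7.23, 7.37 and 6.73 in colon. The segments did not overlap, and 1 small-intestinal array, sample 3, was above background. The difference was 1.76 log2 (SE 0.22, interval 1.27 to 2.24, limma adjusted p = 0.000198). Ly96, whose product MD-2 forms the lipopolysaccharide pocket of TLR4, was instead well expressed in both segments. Its probe (ILMN_2743003) read 8.60, 7.58, 7.86 and 8.26 in small intestine and 8.66, 8.74, 9.13 and 8.76 in colon. The lowest colon sample was only slightly above the highest small-intestinal one. The difference of 0.74 log2 (SE 0.24, interval 0.21 to 1.28) gave a limma adjusted p of 0.0513, which became 0.0127 without small-intestinal sample 1 and lay between 0.0127 and 0.303 over 21 other settings.

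Tlr3, the double-stranded RNA receptor, was above background on 2 small-intestinal and 3 colon arrays. Its probe (ILMN_2697002) read 6.46, 5.79, 4.94 and 5.31 log2 in small intestine and 6.26, 5.74, 5.54 and 6.17 in colon. The segments overlapped throughout. The difference of 0.30 log2 had an interval of -0.40 to 1.00, which is wide enough to hold both a rise and a fall, and the limma adjusted p was 0.554.

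Of the adaptors, Myd88, shared by most receptors of the family, was above background on all 8 arrays. Its probe (ILMN_2971767) read 8.90, 8.21, 8.27 and 7.96 log2 in small intestine and 8.38, 8.32, 8.86 and 8.57 in colon. Small-intestinal sample 1 was the highest of the 8 and small-intestinal sample 4 the lowest, so the colon samples lay inside the small-intestinal range. The difference was 0.20 log2 (SE 0.24, interval -0.32 to 0.72, limma adjusted p = 0.598), and it was -0.03 without scaling between arrays.

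Ticam1, the adaptor of TLR3 and of internalised TLR4, went the other way from Tlr4 and Cd14. Its first probe (ILMN_1256875) read 6.68, 6.22, 7.58 and 7.57 log2 in small intestine and 5.36, 5.79, 5.76 and 5.47 in colon. Every small-intestinal sample was above every colon sample, and the spread was wider in small intestine, where samples 3 and 4 were highest. This probe was above background on all 4 small-intestinal arrays and on 2 colon arrays. The difference was -1.42 log2 (SE 0.31, interval -2.10 to -0.74, limma adjusted p = 0.00717). The second probe (ILMN_1220387) read 5.22, 6.40, 7.19 and 7.31 in small intestine and 5.47, 6.13, 4.96 and 5.02 in colon. It was above background on 3 small-intestinal and 2 colon arrays. It had the same sign, but small-intestinal sample 1 fell among the colon samples and the difference of -1.13 log2 did not pass (SE 0.44, interval -2.11 to -0.16, limma adjusted p = 0.0962). Without small-intestinal sample 1 its adjusted p was 0.00661. Without colon samples 1 and 4 together the first probe was at -1.25 log2 with a limma adjusted p of 0.0926. The Ticam1 promoter, the 250 bases before its start on the minus strand at chr17:56276768-56277017 (RefSeq, GRCm38.p6), is shown because it is the member that was lower in colon, and capitals again mark matches.
Ticam1 promoter: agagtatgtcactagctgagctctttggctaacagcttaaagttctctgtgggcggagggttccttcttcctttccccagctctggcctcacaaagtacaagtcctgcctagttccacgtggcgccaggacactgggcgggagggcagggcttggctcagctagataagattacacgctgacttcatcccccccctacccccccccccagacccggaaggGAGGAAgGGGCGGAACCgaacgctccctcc
The PU.1 letters began 30 bases and the NF-kappaB letters 23 bases before its start, without overlap. The NF-kappaB letters occur in 45.8% of all promoters of that length, and 59.6% of the bases of this window were G or C, against a median of 52.4% over all windows.

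Tirap, which brings MyD88 to TLR2 and TLR4 at the membrane, was measured by 3 probes that differed in their outcome. The first (ILMN_1214645) read 6.03, 5.91, 5.34 and 5.80 log2 in small intestine and 6.22, 6.58, 6.77 and 6.77 in colon. Its segments did not overlap, with colon sample 1 closest to the small-intestinal samples. The difference was 0.81 log2 (SE 0.22, interval 0.33 to 1.29, limma adjusted p = 0.0213). The second probe (ILMN_2792267) differed by 0.67 log2 (SE 0.23, interval 0.16 to 1.18, limma adjusted p = 0.0634), and the third (ILMN_2792268) by 0.48 log2 (SE 0.43, interval -0.46 to 1.43, limma adjusted p = 0.471). In both of these the segments overlapped, and all 3 probes had the same sign. Each of the 3 probes was above background on 3 small-intestinal arrays. The first 2 were so on all 4 colon arrays and the third on 3. The call at the first probe rests on single samples, since its limma adjusted p was 0.0689 without small-intestinal sample 3, 0.0552 without small-intestinal sample 4, 0.0542 without colon sample 3, 0.0658 without colon sample 4 and 0.0703 without colon samples 1 and 4 together, whereas the second probe passed at 0.0311 without small-intestinal sample 4.

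**Figure D2:**
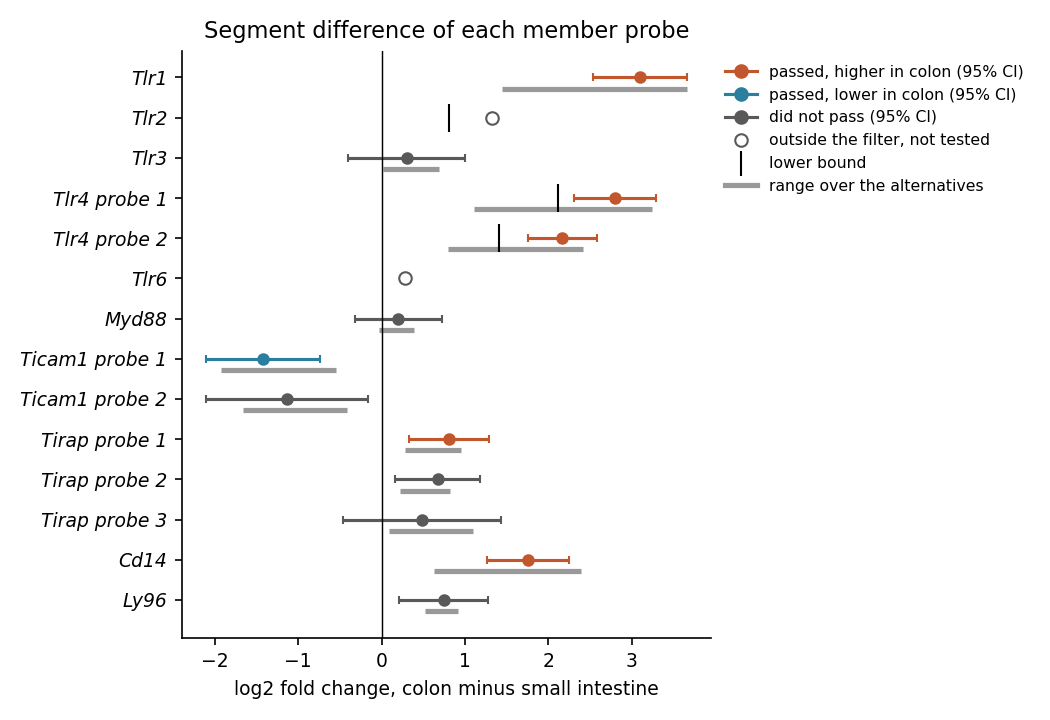
Difference in log2 intensity, colon minus small intestine, for each of the 14 probes, with 95% confidence intervals from limma for the 12 that were tested, open circles for the 2 that were not, black ticks at lower bounds and grey bars for the range over the alternative settings. Tlr1 at 3.10 and the Tlr4 probes at 2.80 and 2.17 lie farthest to the right, and the Ticam1 probes at -1.42 and -1.13 lie left of 0.

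The calls of Tlr1, both Tlr4 probes and Cd14 held in the 20 other settings that tested them, and their sizes depended on the background correction. Without it, the differences were 1.44 log2 for Tlr1, 1.11 and 0.80 for Tlr4 and 0.62 for Cd14, and with the authors' processed values they were 3.66, 3.24, 2.41 and 2.39. In sorted cells measured in bulk, fewer cells that express a gene and less RNA per cell cannot be told apart.

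The other receptor family genes with a probe were largely undetected. Of 12 listed family genes, 10 had a probe, while Tlr5 and Tlr9 had none and were not measured. Tlr7, Tlr8, Tlr11 and Tlr13 were above background on 0 of the 8 arrays, and Tlr12 on 1. Only Tlr1, Tlr3 and Tlr4 of this list were bright enough to be tested. Among 10 co-receptors and chaperones, of which 6 were tested, Cd14 rose and Cd36, a fatty acid transporter that also assists TLR2, fell, and 4 did not pass. Cd36 had a mean of 9.05 ± 0.61 log2 (SD, n = 4) in small intestine. Its mean in colon was 4.84 ± 0.25, with no array above background, and it was thus at least 11.8-fold higher in small intestine (limma adjusted p = 3.11e-06, and 7.50e-05 without the filter, which it passed through the small-intestinal arrays alone). Cd36 is also a gene of fat-absorbing enterocytes, whose markers fell in colon as given below.

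Most of the tested signalling genes downstream of the receptors did not pass. For comparison, 13.1% of all 9080 tested genes were higher in colon and 9.3% lower, each gene taken at its brightest tested probe, and the median difference over all of them was 0.07 log2. Of 27 tested signal transducers, 1 was higher (Tirap), 4 were lower and 22 did not pass, with a median of -0.08 log2. Beside Ticam1, the lower genes were Pik3ap1, an adaptor that links the receptors to phosphoinositide 3-kinase (at least 1.60-fold higher in small intestine, above background on no colon array, limma adjusted p = 0.0144, or 0.0434 without the filter), Tab3, a subunit of the TAK1 kinase complex (-1.08, SE 0.20, adjusted p = 0.00228), and Tbk1, the kinase that activates IRF3 (-0.86, SE 0.27, adjusted p = 0.0456). Of the 4 tested NF-kappaB subunits, 1 passed, Nfkb2 at 0.62 log2 (SE 0.20, limma adjusted p = 0.0475). The calls of Tbk1 and Nfkb2 sit at the threshold and were lost in 10 and 15 of 21 other settings, among them leaving out small-intestinal sample 2 (adjusted p = 0.0907 and 0.0999), 3 (0.123 and 0.121) or 4 (0.115 and 0.120) or colon sample 3 (0.105 and 0.118) or 4 (0.102 and 0.0698), and for Nfkb2 also colon sample 1 (0.0886) or 2 (0.0634). Without colon samples 1 and 4 together, Tbk1 was at 0.102 and Nfkb2 at 0.136, and 2 of the signal transducers were lower and 0 higher.

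Of 18 tested inhibitors of the pathway, 1 was higher in colon (Irak3), 3 were lower and 14 did not pass, with a median of -0.25 log2. This share is near the 22.4% of all tested genes that were called in either direction. Irak3, a kinase-like protein that blocks release of the signalling complex from MyD88, had a mean of 4.95 ± 0.23 log2 (SD, n = 4) on the small-intestinal arrays and of 6.43 ± 0.40 on the colon arrays. It was above background on all 4 colon arrays and on no small-intestinal array, as both Tlr4 probes were, and was at least 2.04-fold higher (limma adjusted p = 0.000988). It passed the filter through the colon arrays alone, and without the filter the adjusted p was 0.00291. Socs3, a suppressor of cytokine signalling, fell by 1.92 log2 (SE 0.33, adjusted p = 0.00151). Trafd1, a feedback inhibitor, fell by 1.35 (SE 0.38, adjusted p = 0.0261) and Nfkbia, which holds NF-kappaB in the cytoplasm, fell by 0.75 (SE 0.24, adjusted p = 0.0498). The number of lower inhibitors was 1 when small-intestinal sample 4, colon sample 1 or colon sample 3 was left out, with limma adjusted p-values for Trafd1 of 0.0788, 0.0648 and 0.0650 and for Nfkbia of 0.150, 0.126 and 0.0689. It was also 1 without colon samples 1 and 4 together, where Trafd1 was at 0.108 and Nfkbia at 0.153. Without small-intestinal sample 3 neither passed (0.0814 and 0.119), and Nfkbia was at 0.0925 without colon sample 2. In all, Trafd1 lost its call in 8 and Nfkbia in 13 of 21 other settings.

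Of genes that are induced by these receptors in many cell types, more were called lower than higher in colon, and many were undetected. Of 38 with a probe, 14 were above background on no array, among them Tnf, Il1b, Il6, Cxcl2 and Lcn2. Of the 19 tested, 2 were higher in colon, 8 were lower and 9 did not pass, with a median of -0.47 log2, and the lower count was 5 without small-intestinal sample 3 or colon sample 2. The higher genes were the acute-phase genes Saa1 (6.15 ± 0.88 against 9.10 ± 0.11 log2, limma adjusted p = 0.000175) and Saa3 (5.33 ± 0.13 against 6.79 ± 0.74, adjusted p = 0.00729, or 0.0936 without colon samples 1 and 4). The 4 with the largest falls were the T cell-attracting chemokine Ccl5 (-3.08 log2, SE 0.50), the chemokine Ccl4 (-2.37, SE 0.56), the bactericidal lectin Reg3g (-2.13, SE 0.29) and Nos2, the inducible nitric oxide synthase (6.92 against 4.92 log2, SE of the difference 0.36), with limma adjusted p-values of 0.00119, 0.0116, 0.000374 and 0.00202. Nos2 was above background on no colon array, which makes it at least 2.70-fold higher in small intestine (adjusted p = 0.0108 without the filter). The chemokine Cxcl5 was too dim to be tested and went the other way, above background on 3 colon arrays and on no small-intestinal array. Other lists hold some of these genes too, since Saa1 is also listed as a colonocyte gene, Ccl5 as a lymphocyte gene and Reg3g as a Paneth cell gene.

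**Figure D3:**
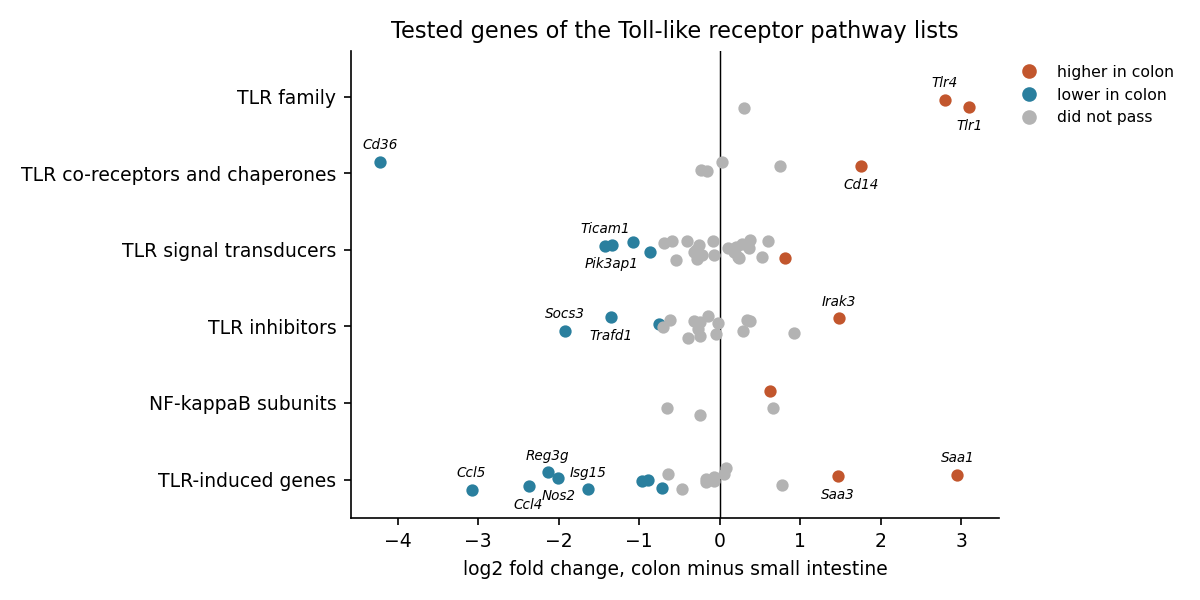
Difference in log2 intensity, colon minus small intestine, of every tested gene of the 6 pathway lists (rows), each gene at its brightest tested probe. Orange points passed as higher in colon, blue ones as lower, and grey ones did not pass; Tlr1, Tlr4, Cd14, Irak3, Saa1 and Saa3 lie to the right and Cd36, Ccl5 and Socs3 to the left.

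Several of the 10 genes are also strongly expressed by macrophages and monocytes. The cells were sorted as CD45-negative, yet transcripts of CD45-positive cells were present, such as the T cell gene Cd3e (7.49 ± 0.60 log2 in small intestine and 5.25 ± 0.50 in colon) and the granzyme gene Gzma (9.97 ± 0.41 and 6.53 ± 1.30, SD, n = 4). Of 21 myeloid markers with a probe, 13 were above background on no array, among them Adgre1, Fcgr1, Mrc1, Cybb, Spi1, C1qa, C1qb, C1qc, S100a8 and S100a9, and 16 were above background on no colon array. In colon Lyz2 fell by 2.44 log2 and Tyrobp fell by 2.25, and Ctss, a lysosomal protease, rose by 0.76. Aif1, the other tested marker, did not pass (-0.96 log2, SE 0.41, limma adjusted p = 0.128). The summed level of the myeloid markers was 1630 to 2231 in small intestine and 2207 to 2355 in colon. Ctss made up the largest part of that sum, with means of 10.15 log2 in small intestine and 10.91 in colon. The part of myeloid cells in the member results was not tested.

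Markers of other cell types differed between the segments, and their part in the member results was not tested. Of 11 tested T and NK cell markers, 8 were lower in colon and 0 higher, and their summed level was 2441 to 4362 in small intestine and 357 to 1229 in colon. All 12 enterocyte markers and all 7 Paneth cell markers tested were lower in colon, with sums of 42573 to 60287 against 3639 to 11285 and of 71263 to 83174 against 1920 to 13227. Of 10 colonocyte markers, 9 were higher in colon, with sums of 2199 to 2734 and 16930 to 20885. The goblet cell sum was 32019 to 32734 in small intestine and 36987 to 44995 in colon. B cell and plasma cell markers were above background on no colon array for 9 of 9 genes (sums of 120 to 179 and 103 to 121). Of the stromal markers, Tagln, an actin-binding protein of smooth muscle, was above background on all 4 colon arrays and on no small-intestinal array, the pattern of Tlr4. Tagln was at least 1.85-fold higher in colon (limma adjusted p = 0.00266), but it passed the filter through the colon arrays alone. Dcn, a matrix proteoglycan of fibroblasts, was above background on 3 colon arrays and on no small-intestinal array (4.91 ± 0.11 and 5.97 ± 0.74 log2, not tested). Other stromal markers did not share this pattern. The actin gene Acta2 was above background on all 8 arrays and did not pass (-0.20 log2, SE 0.21, limma adjusted p = 0.546). Des, Myh11, Col1a1 and Col1a2 were above background on no array. Stromal sums, of which Acta2 made up the largest part, overlapped at 700 to 922 and 687 to 1082. Endothelial sums also overlapped, at 163 to 264 and 148 to 195. Of these genes, 8 of 14 stromal and 8 of 11 endothelial ones were above background on no array. Colon samples 1 and 4 had the higher Paneth cell, enterocyte and T and NK cell sums. Leaving them out gave differences of 3.13 log2 for Tlr1, 2.96 and 2.26 for Tlr4 and 2.10 for Cd14, all still passing.

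**Figure D4:**
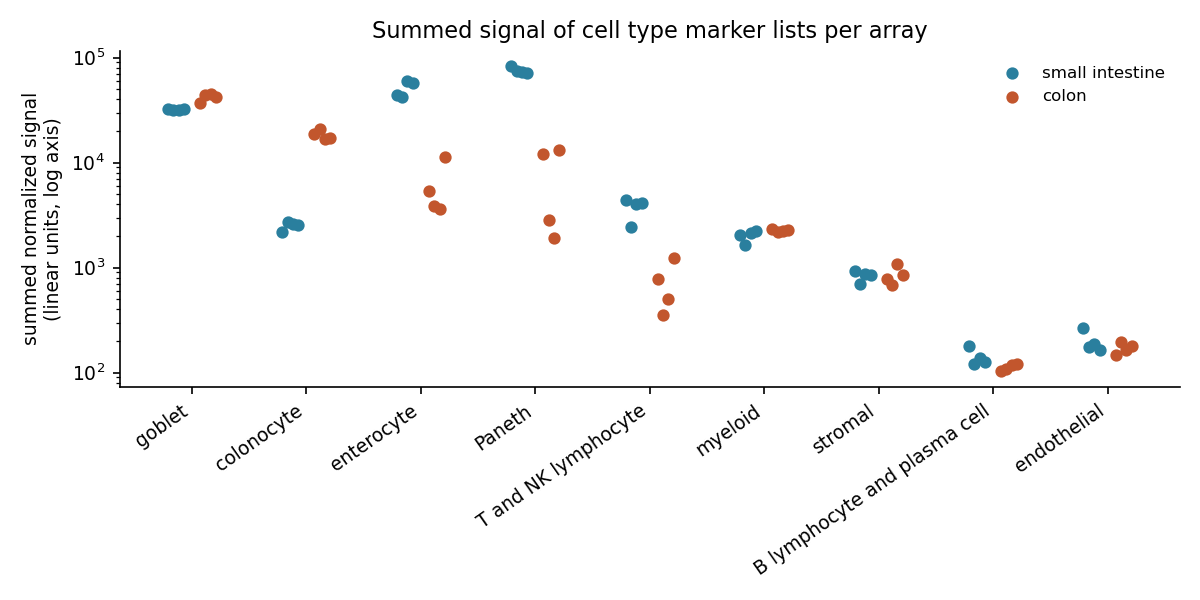
Summed normalized intensity of the marker genes of each cell type (horizontal axis) on every array, in linear intensity units on a log axis, with 1 point per array. The T and NK cell, enterocyte and Paneth cell sums are higher on the 4 small-intestinal arrays and the colonocyte sum on the 4 colon arrays, while the myeloid, stromal and endothelial sums overlap.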

How the data were processed

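Goblet cells sorted from small intestine (4 samples) and colon (4 samples) were hybridised to 1-colour Illumina mouse arrays, per the labels. The first deposited table gives each probe's intensity, linear and not yet normalized, beside its detection p-value, per the file headers. The authors' processed intensity values form a second deposited table. Against each array's own signals they form a straight line: 141 to 163 units were subtracted and every array was brought to a mean of 293. The sources used here do not say how the subtraction was chosen. The column medians of that table were 22.5 to 32.6, and it was used as an alternative after raising lower values to 16. In the signal table, 1 unreadable cell (a probe of Zswim4) was restored from that line.

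Intensities were background-corrected by normexp from the detection p-values with an offset of 16, quantile-normalized and taken to log2 (neqc of limma 3.58.1 in R 4.3.3). Tables and figures were handled in Python 3.11.15 with pandas 2.3.3 and numpy 2.4.6, and drawn with matplotlib 3.10.9. Of 25697 probes, 23978 carried 1 gene symbol in the platform's annotation, 0 several and 1719 none, and symbols were updated through a RefSeq gene table. The 13618 probes with a detection p below 0.05 on at least 4 of 8 arrays were fitted with lmFit and eBayes, two-sided, with Benjamini-Hochberg adjustment at 0.05. The fit was tested on simulated data. Genes of the lists were taken at their brightest tested probe. Named genes are all member probes and, of each pathway list, the called genes that rose most and fell most, up to 4 each way. Where no array of a group detected a probe, a bound was formed: on each array of that group the probe's value was raised to that array's lowest detected value (5.28 to 5.61 log2) if it lay below, and the mean was set against the brighter group's mean. Such a bound concerns the means and does not cover the scatter between samples. Summed levels add the normalized intensity above the offset, over the brightest probe of each gene. Alternatives covered scaling, background correction, filters, the variance prior, array weights, a replicate block and left-out arrays. Promoters came from a RefSeq table (GRCm38.p6), from which those of 7 of the 10 genes were searched, and those of Tlr1 and Ticam1 are shown. Precision is limited by the number of arrays. The members and lists were chosen with earlier results of these data known. Levels are compared between arrays for 1 probe, never between probes.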

Additional observations from a re-analysis of the deposited data

How the results depend on the processing

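The 10 genes were compared under 21 alternative settings. Tlr1, both Tlr4 probes and Cd14 kept direction and call in the 20 settings in which they were tested, with differences of 1.44 to 3.66, 1.11 to 3.24, 0.80 to 2.41 and 0.62 to 2.39 log2; none of them was above background on all 8 arrays. The first Ticam1 probe (-1.93 to -0.55 log2) lost its call in 1 of 20 settings, the first Tirap probe in 8 of 20, which besides the left-out samples were no scaling (adjusted p 0.336), no background correction (0.0638), the replicate block (0.0566) and no colon samples 1 and 4 (0.0703). Myd88 reversed to -0.027 log2 without scaling, under which the median over all genes moved from 0.07 to -0.14. Ly96 passed in 7 of 21 settings, and Tlr3 passed with array weights (0.0444). The cause was not tested.

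Member probes called higher numbered 5, and 1 when every array had to be above background, a filter that left fewer probes to test, with 4 to 6 on leaving out 1 sample. Lower members numbered 1, then 0 with that filter, 2 with array weights, 0 without colon samples 1 and 4, and 1 to 2 on leaving out 1 sample. Over all probes, 1580 were higher, then 744 without scaling, 2672 with array weights, 938 without colon samples 1 and 4 and 1180 to 2040 on leaving out 1. Lower probes numbered 1339, then 847 with the filter on all 8 arrays, 2397 with array weights, 805 without colon samples 1 and 4 and 967 to 1787 on leaving out 1. Higher genes of the 6 lists joined numbered 8, then 2, 14, 5 and 6 to 11 under the filter on all 8 arrays, array weights, without colon samples 1 and 4 and leaving out 1. Lower genes of these lists numbered 16, then 9 with that filter, 10 without colon samples 1 and 4 and 11 to 18 on leaving out 1.

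The labels number samples 1 to 4 in both segments. Same-numbered samples did not clearly deviate together (correlations of 0.07, 0.25, -0.18 and 0.05). With 4 samples per segment this cannot decide whether same-numbered samples share an animal. With the replicate number as a block, 1410 probes were higher and 1217 lower, with 4 and 1 among the members, and not every sample correlated best with its own number. Members near background, Tlr2, Tlr6 and Tlr4 in small intestine among them, have differences that the array cannot size beyond a bound.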
